A study of Mus musculus with 6 samples.

Results

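Glucose sensing and the ATP-sensitive potassium (KATP) channel were followed through 7 genes, Slc2a2, G6pc2, Pcx, Glud1, Kcnj11, Abcc8 and Ucp2, taken by symbol from a table of 24407 gene rows. All 7 were found and all passed the filter on low counts. The tissue was the pancreatic islets of Langerhans of C57BL/6 mice aged 70 weeks and fed regular chow. Wild-type mice (WT) were compared with lmna LCS mice, in which the lamin gene Lmna gives lamin C and no lamin A (LCS, headed KIKI in the table). Each genotype had 3 libraries of poly(A) RNA, and each library pooled 3 mice, which leaves the spread between pools and hides that between single mice. The labels give no sex, batch or pairing.

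A beta cell turns glucose into an electrical signal. Glucose enters through the transporter GLUT2 (Slc2a2), is phosphorylated, and can be dephosphorylated again by the islet glucose-6-phosphatase (G6pc2). Pyruvate carboxylase (Pcx) and glutamate dehydrogenase (Glud1) feed carbon into the citric acid cycle, the uncoupling protein Ucp2 sits in the inner mitochondrial membrane, and the ATP made closes the KATP channel, whose pore is Kir6.2 (Kcnj11) and whose regulatory subunit is the sulfonylurea receptor SUR1 (Abcc8). Closure depolarises the cell and starts insulin release. Whether the RNAs of this chain differ in islets that lack lamin A was the question asked of the 7 genes.

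None of the 7 genes passed the test for a difference between the genotypes (edgeR adjusted p from 0.134 to 0.970), where 2.21% of all 14539 tested genes did (2.06% as higher and 0.144% as lower). At an unadjusted p under 0.05, 2 of the 7 were lower in LCS islets, Slc2a2 and G6pc2, and 0 were higher, against 10.8% lower and 13.3% higher over all tested genes. The median log2 fold change (LCS over WT) was -0.04 for the 7 genes and 0.01 for all tested genes. DESeq2 called 1 of the 7, Slc2a2, as lower, where it called 4.33% of its genes lower and 6.76% higher. Without WT replicate 1, edgeR called 2 of the 7 as lower, Slc2a2 and G6pc2, where it called 7.68% of all tested genes lower and 12.5% higher. Both genes lie at the start of the chain, at glucose entry and at the glucose-6-phosphate step. Values are given below as CPM, counts scaled to the library total after TMM (a factor for differences in library make-up), in the order of replicates 1 to 3.

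**Figure D1:**
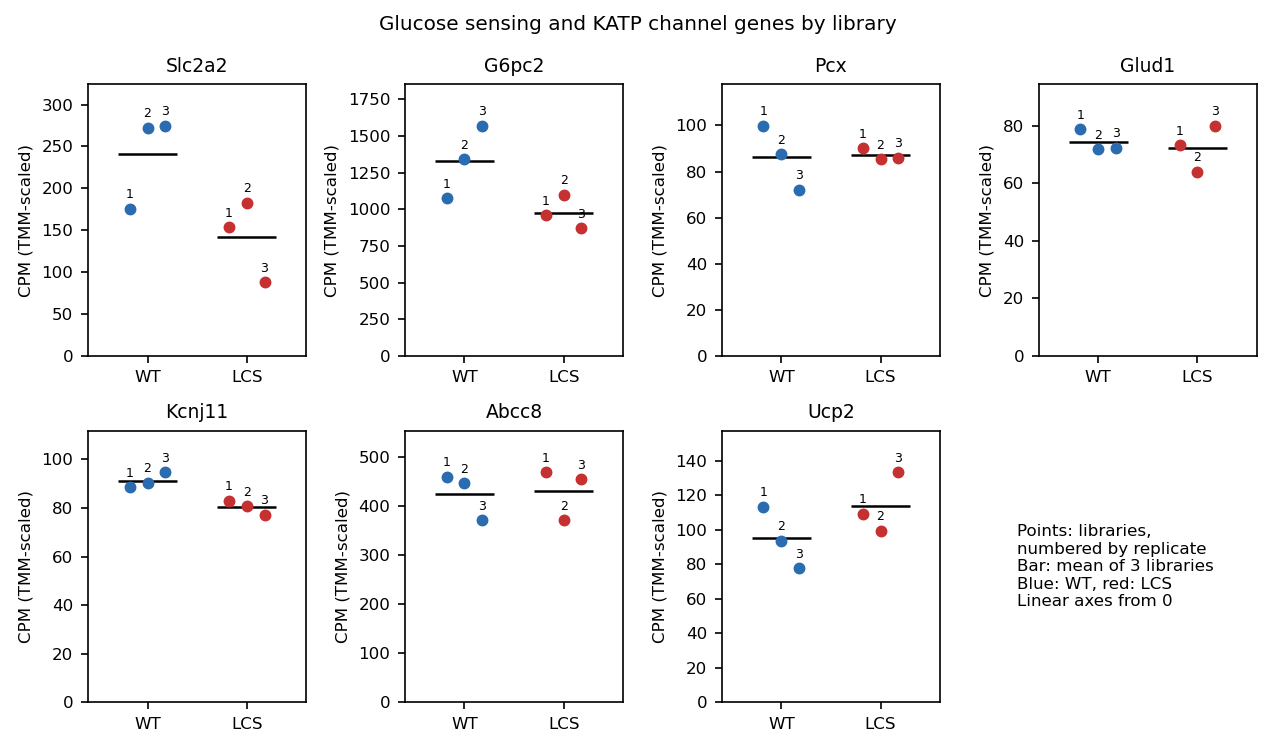
Scaled CPM (linear axes from 0) of the 7 genes by library, with blue points for WT and red points for LCS, numbered by replicate, and bars at the means (n = 3). Kcnj11 is the gene without overlap between genotypes, and Slc2a2 of LCS replicate 3 (88.1 CPM) is the lowest of its 6 values.

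The libraries held 26123654 to 68036676 counts. Rows taken as ribosomal RNA (Rn45s, Lars2 and Mir6236) held 52.3% to 54.1% of the counts in LCS and 7.64% to 18.5% in WT. The highest WT value was that of WT replicate 1. All 6 rows taken as RNAs without a poly(A) tail, those above included, were called higher in LCS (edgeR), as were 2.06% of tested genes. Among these rows Rmrp, Rpph1 and Bc1 had log2 fold changes of 5.24, 5.66 and 7.10. Lars2 is a protein-coding gene, and whether its counts came from ribosomal RNA was not tested. Of the acinar cell markers 20 of 24 tested genes were called higher in LCS, with summed levels of 616 to 1062 CPM in LCS and 207 to 314 CPM in WT. Summed markers of PP and epsilon cells (3250 to 6032 against 840 to 1491 CPM) and of delta cells (2024 to 2531 against 555 to 1542 CPM) were also without overlap, with 1 gene of each list called. Lymphocyte sums did not overlap either (31.3 to 68.9 against 14.1 to 27.5 CPM), with 0 of 9 tested genes called. The beta cell list had 0 of 20 genes called; its sum, led by the insulin genes, was 179220 to 266970 CPM in LCS and 151980 to 176550 in WT, higher without overlap, while its median log2 fold change was -0.14. No listed marker was at 0 in every library, so the defining hormones Ins1, Ins2, Gcg and Sst were all present. The part of these differences in the results below was not tested. In pooled islets, fewer cells of a type and less RNA per cell cannot be told apart.

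Because Slc2a2 and G6pc2 had the lowest values in LCS relative to WT, and Ucp2 the highest, the 250 bases before their start sites are shown first. The sequences are from RefSeq on GRCm38.p6, where 5 of the 7 genes had an entry; the counts rest on mm9. Slc2a2 lies at chr3:28697653-28697902, G6pc2 at chr2:69210823-69211072 and Ucp2 at chr7:100493108-100493357, all on the plus strand. Capitals mark matches on either strand to the homeodomain core TAAT (bound by factors such as PDX1), the E-box CANNTG (bound by basic helix-loop-helix factors such as NEUROD1) and the GC box GGGCGG; no 2 matches overlap in these 3 windows, and the TATA box TATAAA, also searched, is in none of them.
Slc2a2: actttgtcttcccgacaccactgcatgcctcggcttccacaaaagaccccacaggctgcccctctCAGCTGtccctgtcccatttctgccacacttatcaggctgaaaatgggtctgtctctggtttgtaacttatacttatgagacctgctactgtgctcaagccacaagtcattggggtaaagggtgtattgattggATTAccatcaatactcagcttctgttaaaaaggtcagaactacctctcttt
G6pc2: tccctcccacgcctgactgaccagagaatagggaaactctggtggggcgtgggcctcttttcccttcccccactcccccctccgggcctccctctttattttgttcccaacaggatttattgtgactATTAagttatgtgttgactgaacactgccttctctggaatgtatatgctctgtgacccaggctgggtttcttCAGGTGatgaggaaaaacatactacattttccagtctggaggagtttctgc
Ucp2: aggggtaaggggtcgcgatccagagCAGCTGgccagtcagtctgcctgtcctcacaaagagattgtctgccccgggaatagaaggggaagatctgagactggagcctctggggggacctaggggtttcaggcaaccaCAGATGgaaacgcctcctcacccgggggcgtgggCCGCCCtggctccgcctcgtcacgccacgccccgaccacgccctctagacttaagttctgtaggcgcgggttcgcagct
The windows of Slc2a2 and G6pc2 each hold 1 TAAT core and 1 E-box and 0 GC boxes, and that of Ucp2 holds 0 TAAT cores, 2 E-boxes and 1 GC box. Of all 32851 windows of this length in the table, 54.9% hold a TAAT core, 66.2% an E-box, 32.7% a GC box and 12.4% a TATA box, so each of these matches is common. The GC content was 47.2% for Slc2a2, 50% for G6pc2 and 63.6% for Ucp2, around a median of 52.4% over all windows.

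Slc2a2, the glucose transporter gene, had 153.7, 182.6 and 88.1 CPM in LCS and 175.7, 272.3 and 274.5 CPM in WT. The genotypes overlapped, since LCS replicate 2 lay above WT replicate 1. The mean was 141.5 ± 48.5 CPM in LCS and 240.8 ± 56.4 in WT (SD, n = 3), a log2 fold change of -0.77 (SE 0.27, 95% interval -1.37 to -0.17), or a level 1.70-fold lower in LCS. The difference did not pass the test over all genes (edgeR adjusted p = 0.134, unadjusted p = 0.0172). Slc2a2 was also the most variable of the 7 genes, with a coefficient of variation of 34.3% in LCS and 23.4% in WT. Among the 2041 genes with a mean of at least 50 CPM, 97.6% varied less than Slc2a2 among the LCS libraries and 85.5% less among the WT libraries.

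The call of Slc2a2 depended on the test and on the libraries that entered. Of the libraries left out singly, only the removal of WT replicate 1 brought a call by edgeR. Without WT replicate 1 the log2 fold change was -0.95 (SE 0.25, edgeR adjusted p = 0.0246), and without LCS replicate 3, the library with the lowest value, it was -0.51 (SE 0.22, edgeR adjusted p = 0.363). DESeq2 on all 6 libraries gave -0.80 (SE 0.27, adjusted p = 0.0370). Offsets for the length and GC content of transcripts brought it to -0.34 (SE 0.14, edgeR adjusted p = 0.233).

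G6pc2, whose enzyme returns glucose-6-phosphate to glucose, had 960.5, 1099 and 872.1 CPM in LCS and 1078, 1341 and 1570 CPM in WT. LCS replicate 2 lay just above WT replicate 1, and the other 4 libraries did not cross. The mean was 977.3 ± 115 CPM in LCS and 1330 ± 246 in WT (SD, n = 3), a log2 fold change of -0.44 (SE 0.19, 95% interval -0.86 to -0.03, edgeR adjusted p = 0.183). In G6pc2, as in Slc2a2, LCS replicate 3 was the lowest library and WT replicates 2 and 3 were the highest. Without WT replicate 1 the log2 fold change was -0.57 (SE 0.17, edgeR adjusted p = 0.0397), and without WT replicate 3 it was -0.31 (SE 0.20, edgeR adjusted p = 0.538). With the length offset alone it was -0.63 (SE 0.20, edgeR adjusted p = 0.201). With the length and GC offsets it was -0.42 (SE 0.13, edgeR adjusted p = 0.122).

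Kcnj11, the pore subunit of the KATP channel, had 83.1, 80.9 and 77.3 CPM in LCS and 88.5, 90.4 and 94.7 CPM in WT. The genotypes did not overlap, with every LCS library lower, as for 12.0% of all tested genes (26.6% in either direction). The difference was small: the mean was 80.4 ± 2.92 CPM in LCS and 91.2 ± 3.16 in WT (SD, n = 3), a log2 fold change of -0.18 (SE 0.13, 95% interval -0.46 to 0.10, edgeR adjusted p = 0.401). With the length offset alone it was -0.12 (SE 0.11, edgeR adjusted p = 0.588), and with the length and GC offsets -0.36 (SE 0.15, edgeR adjusted p = 0.221). Length and GC offsets from all transcript models, partial ones included, gave -0.67 (edgeR adjusted p = 0.0591), a setting chosen after seeing the data. Kcnj11 had the lowest spread of the 7 genes in WT, with a coefficient of variation of 3.46%.

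Abcc8, the regulatory subunit, had 467.7, 371.0 and 454.0 CPM in LCS and 458.6, 445.5 and 370.1 CPM in WT. Each genotype had 1 library near 370 CPM, LCS replicate 2 and WT replicate 3, and the remaining values lay between 445.5 and 467.7 CPM. The log2 fold change was 0.02 (SE 0.16, edgeR adjusted p = 0.948). Its 95% interval, -0.34 to 0.38, covers levels from 0.792 to 1.30 times that of WT.

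The enzymes that carry pyruvate and glutamate into the citric acid cycle had means within a few percent of each other. Pcx had 90.2, 85.3 and 86.0 CPM in LCS and 99.8, 87.5 and 72.1 CPM in WT, so that the LCS values lay inside the WT range. Its log2 fold change was 0.01 (SE 0.15, 95% interval -0.33 to 0.35, edgeR adjusted p = 0.970). RefSeq places Lrfn4, a synaptic adhesion gene, inside Pcx; Lrfn4 had 16.4 ± 4.01 CPM in LCS and 12.8 ± 7.38 in WT (SD, n = 3), and whether reads were shared between them is not known.

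Glud1 had 73.2, 64.0 and 79.9 CPM in LCS and 78.9, 71.8 and 72.4 CPM in WT. Here the WT values lay inside the LCS range, the reverse of Pcx. The log2 fold change was -0.04 (SE 0.14, 95% interval -0.35 to 0.27, edgeR adjusted p = 0.885).

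Ucp2, whose carrier protein lowers the yield of ATP from glucose, had 109.2, 99.4 and 133.2 CPM in LCS and 113.4, 93.6 and 77.8 CPM in WT. The highest value was that of LCS replicate 3, which was lowest in Slc2a2 and G6pc2, and the lowest that of WT replicate 3, which was highest in those genes. The mean was 113.9 ± 17.4 CPM in LCS and 94.9 ± 17.8 in WT (SD, n = 3), a log2 fold change of 0.26 (SE 0.18, 95% interval -0.13 to 0.66, edgeR adjusted p = 0.387). Macrophages also make Ucp2, and the summed macrophage markers were at 84.4 to 101 CPM in LCS and 55.1 to 71.8 CPM in WT, without overlap; their part in the value of Ucp2 was not tested. Of the 10 markers 2 were called higher, Lyz1 and Lyz2, and C1qa had the highest level, while Adgre1 (log2 -0.62), Mrc1 (-0.29), Csf1r (-0.16) and Cd68 (-0.03) had estimates below 0 and were not called.

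**Figure D2:**
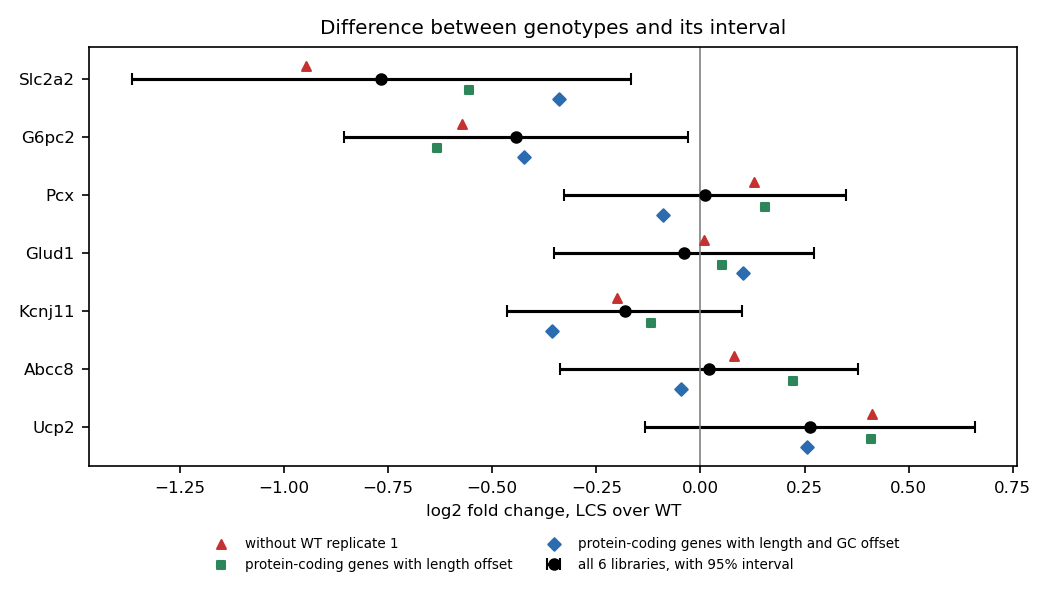
Log2 fold change (LCS over WT) of each of the 7 genes with its 95% interval (black), and the estimates without WT replicate 1 (red triangles), with a length offset (green squares) and with a length and GC offset (blue diamonds). The intervals of Slc2a2 (-1.37 to -0.17) and G6pc2 (-0.86 to -0.03) lie below 0, the others include 0, and none of the 7 passed the test after adjustment over all genes.

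Ratios of counts within a library do not depend on how libraries are scaled, and p-values were adjusted over the 4 that were compared, of which 2 are given. Kcnj11 and Abcc8 code for subunits that assemble in equal numbers. There were 0.178, 0.218 and 0.170 Kcnj11 counts per Abcc8 count in LCS and 0.193, 0.203 and 0.256 in WT, with overlapping groups (exact two-sided permutation p = 0.3, adjusted over 4 ratios 0.3).

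Per 1000 counts of the insulin gene Ins2 there were 1.11, 1.76 and 0.537 Slc2a2 counts in LCS and 2.15, 2.83 and 3.25 in WT. The genotypes did not overlap, and the ratio was 2.66-fold lower in LCS (1.14 ± 0.613 against 2.74 ± 0.555, SD, n = 3). Its exact two-sided permutation p was 0.1, the smallest that 3 against 3 libraries can give, and 0.3 after adjustment. Ins2 itself stood at 135420 ± 30304 CPM in LCS and 87436 ± 7746 in WT (SD, n = 3; log2 fold change 0.63, SE 0.26, edgeR adjusted p = 0.186), so the ratio holds differences of both genes. The transcripts also differ in length, with 479 nt for Ins2 and 5569 nt for Slc2a2. Fold changes followed length, as described below: the class under 1000 nt had a median of 0.63 (log2), and that from 5000 nt of -0.28. The part of transcript length and GC content in this ratio was not tested, nor was the ratio of other genes to Ins2. Neither Ins1, the paralog of Ins2 (log2 0.28, SE 0.25), nor the glucagon gene Gcg of alpha cells (log2 0.33, SE 0.21) passed the test.

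**Figure D3:**
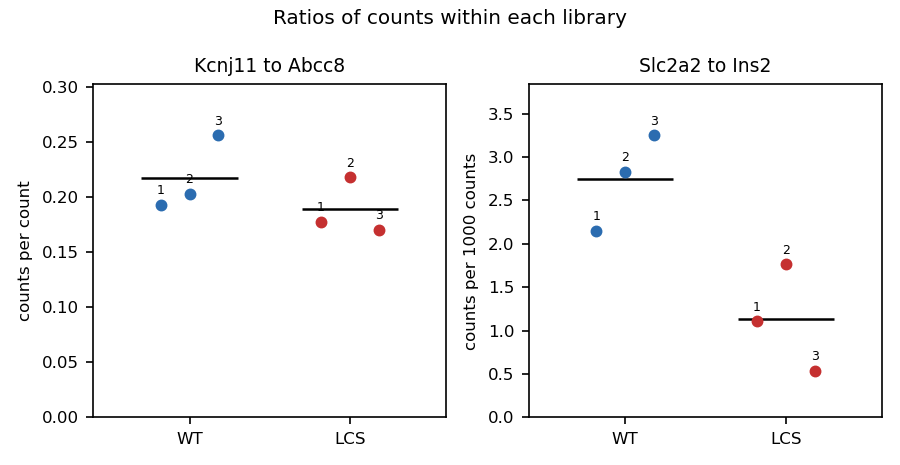
Ratios of counts within each library for 2 pairs of genes (linear axes from 0; the second per 1000 Ins2 counts), with blue points for WT, red points for LCS and bars at the means (n = 3). Kcnj11 to Abcc8 overlaps and Slc2a2 to Ins2 has no overlap between the genotypes, with LCS at 0.537 to 1.76 and WT at 2.15 to 3.25.

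Levels were set between genes per 1000 bases of transcript (CPM per kb, GENCODE M21 lengths). G6pc2 was highest in all 6 libraries, at 537 ± 62.9 CPM per kb in LCS and 730.3 ± 135 in WT, followed in all 6 by Abcc8 at 88.4 ± 10.7 and 87.1 ± 9.80 (SD, n = 3). Slc2a2 stood in the next place in every library except LCS replicate 3, where it was the lowest of the 7 genes at 15.8 CPM per kb, against 27.6 to 49.3 in the others. Kcnj11 (25.6 ± 0.928 in LCS, 29.0 ± 1.01 in WT) and Ucp2 (28.6 ± 4.35 and 23.8 ± 4.48) exchanged places between libraries. Pcx (21.5 ± 0.650 and 21.3 ± 3.42) and Glud1 (21.3 ± 2.36 and 21.9 ± 1.16) did not differ beyond their spread.

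For 5 of the 7 genes the share within a set of close relatives was computed per length. Kcnj11 made up 96.3% ± 0.737 of Kcnj11 plus Kcnj8 (the Kir6.1 pore of vessels) in LCS and 97.5% ± 0.997 in WT, and Abcc8 99.4% ± 0.280 and 99.2% ± 0.109 of Abcc8 plus Abcc9, the SUR2 gene of muscle (SD, n = 3, exact two-sided permutation p = 0.2 and 0.1). G6pc2 made up 96.8% ± 0.937 in LCS and 97.8% ± 0.659 in WT of itself, G6pc and the widely expressed G6pc3 (exact permutation p = 0.2), with G6pc3 itself at a log2 fold change of 0.15 (SE 0.18). The liver gene G6pc had no more than 2 counts in any library, Ucp1 of brown fat no more than 2, and Ucp3 of muscle 1 to 7. Among the glucose transporters Slc2a2 shared more: it was 73.2%, 77.9% and 63.9% of Slc2a1, Slc2a2 and Slc2a3 in LCS and 75.7%, 89.2% and 88.3% in WT (exact two-sided permutation p = 0.2). Slc2a1, the GLUT1 gene, was at 27.2 ± 1.70 CPM in LCS and 21.3 ± 7.18 in WT (SD, n = 3; log2 fold change 0.35, SE 0.22, edgeR adjusted p = 0.350), and Slc2a3, the GLUT3 gene, at 4.34 ± 0.817 and 3.98 ± 0.398.

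Kcnj11 and Abcc8 are neighbours on chromosome 7 in RefSeq, and Ucp2 lies beside Ucp3 on the same chromosome. The genes on either side of the KATP pair did not pass the test: the log2 fold change was 0.03 (SE 0.14) for Nomo1, a gene of the endoplasmic reticulum membrane, and -0.09 (SE 0.13) for Ush1c, at 51.4 ± 5.41 and 48.4 ± 2.16 CPM in WT (SD, n = 3). Dnajb13, beside Ucp2, had no more than 6 counts in any library.

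Around the 7 genes, 7 lists of the same chain with 112 genes in all were followed, of which 102 were tested. None was called in either direction (edgeR), against 2.21% of all tested genes. At an unadjusted p under 0.05, 9 were higher and 11 lower, or 19.6% of the tested genes against 24.1% over all tested genes. Without WT replicate 1, 14 were called higher and 10 lower, or 23.5% against 20.2% of all tested genes. DESeq2 called 3 higher and 5 lower, or 7.92% of its list genes against 11.1% of all its genes. With the length and GC offsets 0 were called, against 1.13% of all tested genes. With such offsets from all transcript models 3 were called lower, or 2.94% against 5.05%. Of the other list genes that are named, those called without WT replicate 1 were Pfkfb2, Ank2, Prkaa2 and Glul as lower and Mpc1, Mpc2, Slc25a11, Slc25a4, Mdh2, Ldha, Nkx2-2 and Slc2a1 as higher.

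In the list of glucose entry and phosphorylation, 0 of 16 genes passed the test and the median log2 fold change was -0.11. Pfkfb2, which makes the activator of phosphofructokinase, had 107.6, 123.4 and 68.5 CPM in LCS and 135.2, 221.0 and 232.6 CPM in WT. Its groups did not overlap, with LCS lower, as for 12.0% of all tested genes. The level was 1.97-fold lower in LCS (log2 -0.97, SE 0.26, edgeR adjusted p = 0.0761). The order of its libraries was that of Slc2a2 except that LCS replicate 2 and WT replicate 1 changed places. Pfkfb2 was called lower by DESeq2 (log2 -1.01, adjusted p = 0.00428) and by edgeR without WT replicate 1 (log2 -1.18, adjusted p = 0.00585). It was also called lower with no filter, and with length and GC offsets from all transcript models, a setting chosen after seeing the data. With the length and GC offsets Pfkfb2 was not called (log2 -0.99, SE 0.23, edgeR adjusted p = 0.0636), nor was it when any other single library was left out. Hkdc1, a hexokinase-like gene, was at -1.65 on the log2 scale (SE 0.53), from levels of 0.202 ± 0.0387 CPM in LCS and 0.645 ± 0.357 in WT (SD, n = 3, edgeR adjusted p = 0.115).

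In the list of pyruvate entry and anaplerosis, to which Pcx belongs, 0 of 25 genes passed the test (median 0.07). The genes with the smallest p were Mpc1 and Mpc2, the paired subunits of the mitochondrial pyruvate carrier, and Slc25a11, the oxoglutarate carrier. Mpc1 had 48.6, 63.5 and 55.7 CPM in LCS and 41.8, 36.1 and 31.3 CPM in WT, with no overlap (log2 0.62, SE 0.16, edgeR adjusted p = 0.0769). Mpc2 had 22.8, 29.5 and 23.6 CPM in LCS and 18.5, 8.09 and 7.05 CPM in WT, also with no overlap (log2 1.17, SE 0.33, edgeR adjusted p = 0.0873). For both the WT library nearest to LCS was replicate 1, and without it both were called higher (log2 0.73 and 1.74, edgeR adjusted p = 0.0142 and 0.000482). DESeq2 on all 6 libraries also called both higher (log2 0.59 and 1.15, adjusted p = 0.0225 and 0.00734), as did edgeR scaled to the beta cell list. With no filter, edgeR called Mpc2 higher and not Mpc1. With the length and GC offsets Mpc1 was at 0.31 (SE 0.15, edgeR adjusted p = 0.304) and Mpc2 at 0.72 (SE 0.27, edgeR adjusted p = 0.193). Slc25a11 had 33.3, 31.6 and 35.8 CPM in LCS and 27.6, 21.7 and 20.4 CPM in WT, again with no overlap (edgeR adjusted p = 0.102). Of all tested genes 14.6% were higher in LCS without overlap, and Mpc1, Mpc2 and Slc25a11 were named for their small p. The log2 fold change of Slc25a11 was 0.53 (SE 0.16). With the length and GC offsets it was at 0.24 (SE 0.10, edgeR adjusted p = 0.230).

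Among the genes of glutamate metabolism 0 of 15 passed (median -0.08). Glul, which makes glutamine from glutamate, was at 378.9 ± 17.6 CPM in LCS and 494.7 ± 73.7 in WT (SD, n = 3, edgeR adjusted p = 0.178). Hadh, whose protein inhibits glutamate dehydrogenase, was chosen after its values were seen; its log2 fold change was 0.22 (SE 0.16).

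Of the channel subunits and partners 0 of 15 passed (median -0.00). Ank2, whose ankyrin anchors the channel at the membrane, was at 40.9 ± 5.01 CPM in LCS and 60.1 ± 11.9 in WT, the AMP kinase subunit gene Prkaa2 at 8.76 ± 3.34 and 15.9 ± 4.19, and the mitochondrial creatine kinase gene Ckmt1 at 11.4 ± 1.34 and 8.24 ± 0.519 (SD, n = 3, edgeR adjusted p = 0.115, 0.134 and 0.146). The log2 fold change of Kcnj8 was 0.37 (SE 0.33) and that of Abcc9 -0.61 (SE 0.35).

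Of the uncoupling proteins and adenine nucleotide carriers 0 of 6 passed (median 0.06), and the smallest p was that of Slc25a4, which exchanges ATP for ADP across the inner membrane. It had 104.6, 116.2 and 129.5 CPM in LCS and 96.3, 69.5 and 59.8 CPM in WT (log2 0.63, SE 0.19, edgeR adjusted p = 0.0985). The groups did not overlap, with LCS higher, as for 14.6% of all tested genes. DESeq2 called Slc25a4 higher (log2 0.61, adjusted p = 0.0361). WT replicate 1 was again the WT library nearest to LCS. With the length and GC offsets Slc25a4 was at 0.48 (SE 0.14, edgeR adjusted p = 0.118). Slc25a27, also known as UCP4, was at -0.30 (SE 0.25). Among redox shuttles and genes kept low in beta cells 0 of 8 passed (median 0.11), with Mdh2 at 0.61 (SE 0.21), Ldha at 0.52 (SE 0.19) and Gpd2 at -0.40 (SE 0.20). With the length and GC offsets Mdh2 was at 0.21 (SE 0.11), Ldha at 0.28 (SE 0.14) and Gpd2 at -0.09 (SE 0.12). Of 17 transcription factors known to act on these genes 0 passed, 0 reached an unadjusted p under 0.05, and the median was 0.05. The smallest p belonged to Neurod1 (log2 -0.38, SE 0.20), Foxo1 (-0.24, SE 0.14) and Nkx2-2 (0.43, SE 0.31).

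**Figure D4:**
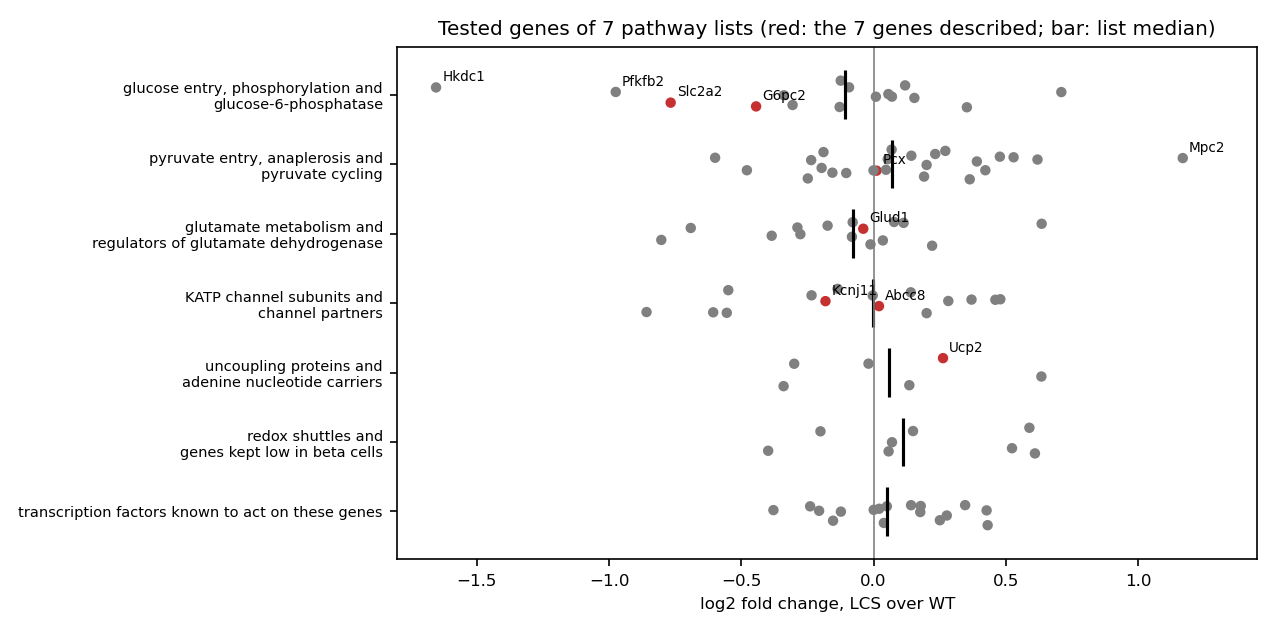
Log2 fold change (LCS over WT) of each tested gene of the 7 pathway lists, with the 7 genes described in red, other genes in grey and black bars at the medians. No gene shown passed the test, and the list medians lie between -0.11 and 0.11.

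The fold change of a gene followed the GC content and length of its transcript across the genome, and the 7 genes differ in both. For protein-coding transcripts below 42% GC the median was -0.40 on the log2 scale, the class of Slc2a2 (41.7% GC, 5569 nt). It was -0.22 from 42% to 46%, the class of G6pc2 (44.8% GC). It was 0.23 above 54% GC, the class of Pcx, Kcnj11, Abcc8 and Ucp2. By length it was -0.28 from 5000 nt, the class of Slc2a2, and 0.27 from 1000 to 2000 nt, the class of G6pc2 (1820.5 nt). Slc2a2 at -0.77 thus lay below the median of both its classes, and G6pc2 at -0.44 below a GC class that was negative and a length class that was positive. Kcnj11 at -0.18, Abcc8 at 0.02 and Pcx at 0.01 lay below the median of their GC class, and Ucp2 at 0.26 close to it. By length the order differed. From 3000 to 4000 nt the median was -0.09 (quartiles -0.32 and 0.13), with Kcnj11 below it and Ucp2 above the upper quartile. From 4000 to 5000 nt the median was -0.19, and Abcc8 and Pcx lay above it. The part of GC content and length in the single values was not tested beyond the offsets given here.

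**Figure D5:**
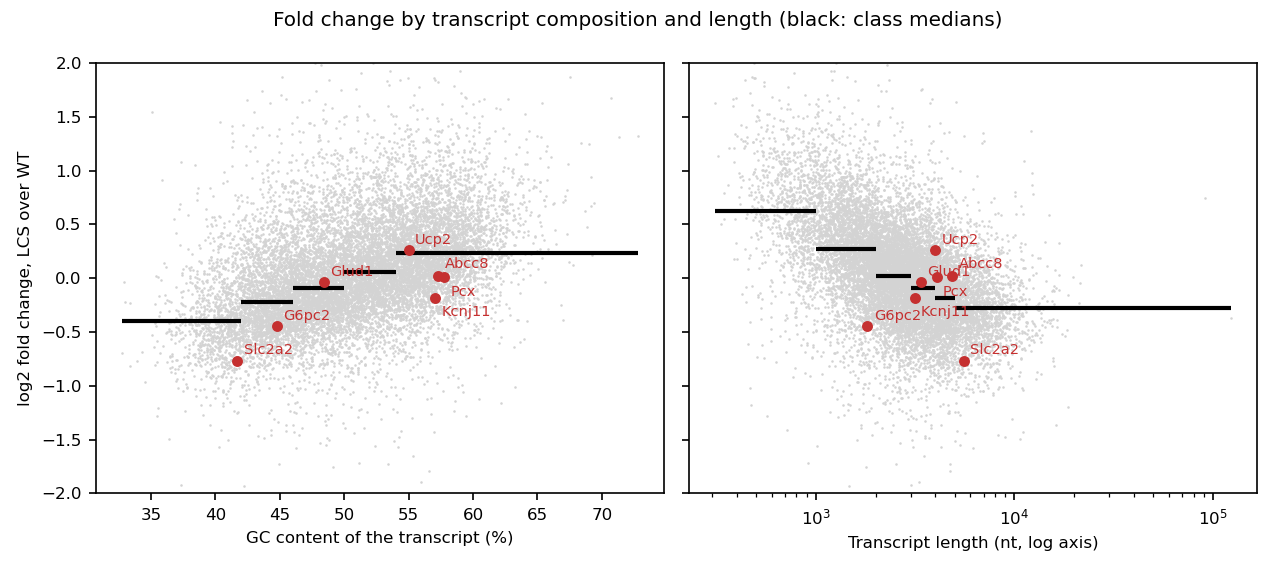
Log2 fold change (LCS over WT) of each protein-coding gene (grey; values beyond 2 in either direction are outside the axis) against the GC content (left, %) and length (right, nt, log axis) of its transcript, with class medians as black bars and the 7 genes in red. Slc2a2 lies in the lowest GC class, whose median is -0.40, and in the longest length class, whose median is -0.28.

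The genes with values most like those of each of the 7 over the 6 libraries were found among 9687 others by Pearson's r of log2 CPM, as a description. They were Nipal1 and Pdcd11 for Slc2a2 (r = 0.999 and 0.997), Top2b and Zdhhc21 for G6pc2 (r = 0.9996 and 0.999), Galnt1 and Osbpl6 for Kcnj11 (r = 0.996 and 0.995), and Tmem259 and Lrrc42 for Ucp2 (r = 0.996 for both). For Abcc8 they were Thra and Mast2 (r = 0.991 and 0.990), for Pcx Rgl3 and Rai1 (r = 0.992 and 0.989), and for Glud1 Kazn and Znrf1 (r = 0.970 and 0.967). The number of genes with r above 0.95 was 925 for Slc2a2 and 815 for G6pc2, against 257 for Ucp2, 226 for Kcnj11, 31 for Pcx, 28 for Abcc8 and 8 for Glud1.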

How the data were processed

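The authors deposited 1 table of raw gene counts. Without giving roles, the submitters' processing notes list the mm9 build, HTSeq 0.9.0, Bowtie2 2.2.9, TopHat2 2.1.1, FastQC and bcl2fastq 2.20. Per the labels' protocols, TRIzol served for extraction and a stranded TruSeq kit for the libraries. Which annotation and strand setting were used is not given in the sources used here. Groups came from the labels; replicates were numbered in accession order.

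The test was that of edgeR 4.0.16 in R 4.3.3 (filterByExpr, TMM, quasi-likelihood, genotype as the only term, all 6 libraries), with p-values adjusted by Benjamini-Hochberg over 14539 genes and calls at 0.05. Standard errors are the log2 fold change over the root of the F statistic. The steps were tested on simulated counts. Ratios and shares were compared by exact permutation with scipy 1.17.1. Length and GC content of a gene are the medians of its basic GENCODE M21 models; symbols were matched to RefSeq GRCm38.p6 by gene number (24320 rows). DESeq2 1.42.0 and limma 3.58.1 were alternatives. The 7 genes, the lists and the tests were chosen with earlier results of these data known. The rule for named genes took the 7 genes, their relatives and neighbours, Ins1, Ins2, Gcg, every called gene and up to 3 others of each list with the smallest p, and the 2 genes most like each in pattern. Precision is limited by 3 libraries a genotype, since every one of the 7 genes had at least 2094 counts in each library. Some genes that the rule names are not reported here.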

Additional observations from a re-analysis of the deposited data

How the results depend on the processing

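The 7 genes were tested under 19 alternatives, 3 of them chosen after seeing the data (protein-coding genes only, and the offsets from all transcript models). Slc2a2, G6pc2 and Kcnj11 kept their sign in all 19, Ucp2 in 18, Pcx in 13, Glud1 in 12 and Abcc8 in 11. DESeq2 called 1 of the 7 as lower (Slc2a2, -0.80). Leaving out each library in turn called 0 to 2 as lower and 0 as higher, with log2 fold changes of -0.97 to -0.51 for Slc2a2, -0.57 to -0.31 for G6pc2, -0.20 to -0.14 for Kcnj11, -0.11 to 0.13 for Pcx, -0.11 to 0.071 for Glud1, -0.070 to 0.14 for Abcc8 and 0.14 to 0.41 for Ucp2. Adjusted p for Slc2a2 ranged from 0.0246 to 0.363 over its alternatives, and for G6pc2 from 0.0397 to 0.538.

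Sign changes, none of them of a called gene, were as follows. Leaving out 1 library changed the sign of Pcx (without WT replicate 3) and of Glud1 (without LCS replicate 2 or WT replicate 1). The sign of Abcc8 changed without LCS replicate 1, LCS replicate 3 or WT replicate 3. With DESeq2 size factors and with the DESeq2 test, Pcx was at -0.0098 and -0.016 and Abcc8 at -0.0011 and -0.0071. With length and GC offsets Pcx was at -0.089, Abcc8 at -0.047 and Glud1 at 0.10, and with the length offset Glud1 was at 0.053. Scaled to the beta cell list Glud1 was at 0.025, at a minimum of 10 CPM at 0.020 and without WT replicates 1 and 2 at 0.00045. With lengths from all transcript models Pcx was at -0.20 and Abcc8 at -0.086, and with GC content as well Pcx was at -0.37, Abcc8 at -0.28 and Ucp2 at -0.027. The median over all models takes partial ones (494 nt for Kcnj11, against 3142 nt in the basic set). The causes were not tested.

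Over all tested genes 300 were called higher and 21 lower. These counts were 481 and 33 scaled to the beta cell list, 916 and 587 with DESeq2, 560 and 126 with no filter, 22 and 3 with the length offset, 94 and 60 with length and GC offsets (74 and 4, and 453 and 237, from all models), 884 and 331 without WT replicates 1 and 2, and 81 to 1857 and 1 to 1142 when each library was left out. The log2 ratios within libraries kept their sign when each library was left out (-1.81 to -0.95 for Slc2a2 to Ins2). No paired analysis was possible because the labels give the genotypes no shared replicate numbers.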

Other observations

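Spc25, a kinetochore gene of dividing cells that neighbours G6pc2 in RefSeq, was chosen after its values were seen. It had 75.2 ± 17.4 CPM in LCS islets and 73.7 ± 2.27 in WT (SD, n = 3; log2 fold change 0.03, SE 0.17). On the other side of G6pc2, Abcb11, the bile salt export pump of the liver, was at 1.10 ± 0.306 and 0.815 ± 0.260 CPM. Slc2a2 is flanked by Tnik (log2 -0.54, SE 0.18) and Eif5a2 (log2 -0.50, SE 0.28), and neither passed the edgeR test.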
